A study of Homo sapiens with 7 samples.

Results

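The 3 SPOCK genes, SPOCK1, SPOCK2 and SPOCK3, were described by the open chromatin in and around them, as ATAC-seq peaks. A peak was a member when its summit lay in the span of one of the genes or within 100 kb of either end on hg38. In all, 1145 of the 2093738 deposited peaks were members, 563 at SPOCK1, 249 at SPOCK2 and 333 at SPOCK3. The family was chosen by the deposited peak strengths, because SPOCK3 had strong regions open only in definitive endoderm, so the SPOCK3 values of that stage against the others are given as a description, with no test.

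The SPOCK genes encode the testicans, secreted proteoglycans of the SPARC family that carry glycosaminoglycan chains, bind calcium and are best known from the extracellular matrix of the brain. Testican-1 was described as an inhibitor of cathepsin L, and testican-3 as an inhibitor of the activation of gelatinase A by membrane-type matrix metalloproteinases, which testican-2 was reported to relieve. Definitive endoderm forms as epiblast cells move inwards and change their contacts with the matrix, and foregut endoderm later folds into the pharynx.

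ATAC-seq reads the sites where the Tn5 transposase inserts adapters, and was made here from the human embryonic stem cell line H1 at 4 stages of a stepwise differentiation. There were 2 libraries of the undifferentiated line (hESC), 2 of definitive endoderm (hDE), and further libraries of anterior foregut endoderm (hAFE, 2) and pharyngeal foregut endoderm (hPFE, 1). The labels name no agent, time or genetic change that sets a group apart. They mark the hESC and hDE libraries, but not the others, as re-analysed. In hAFE against hDE and in hPFE against hESC, stage and this mark cannot be told apart. The labels do not say whether replicates were separate cultures.

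Each library held 298508 to 299374 peaks, and its depth, recovered as the genome-wide background pileup of cut sites, was 2.11 and 4.62 (hESC), 4.58 and 7.94 (hDE), 2.22 and 3.85 (hAFE) and 5.66 (hPFE). The 50000 strongest merged regions of a library by −log10 p are called strict, and a region with no deposited peak in a library is called absent from it. A strict call was made for 37.7%, 38.2%, 37.7%, 38.4%, 37.8%, 37.9% and 38.0% of all regions in the 7 libraries in stage order. The strict regions of the 7 libraries merged to 129718 regions, of which 81 were members, 31 at SPOCK1, 16 at SPOCK2 and 34 at SPOCK3. The other member peaks merged to 215, 62 and 106 regions that were strict nowhere. Relative height below is the summit over the genome-wide background, divided by its median over the 14587 regions strict in all 7 libraries, so that 1 is a typical region open at every stage. At the definitive endoderm markers SOX17, EOMES, GATA6 and CXCR4 the hDE libraries had 39 and 30 strict regions, against 15 to 25 in the other 5. At POU5F1, NANOG and DPPA4 the hESC libraries had 24 and 35, against 14 to 20 in the other 5. PAX9 and PAX1 had 19 in hPFE and 10 to 18 in the others, and FOXA2 and HHEX had 13 and 11 in hAFE and 17 and 11 in hDE, so these last markers did not set the foregut stages apart.

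The sequences just upstream of the annotated starts are shown for SPOCK3 and SPOCK2, since of this pair a region over the start was strict in all 7 libraries at SPOCK3 and in none at SPOCK2. They are the 250 bases before the most upstream start in the RefSeq promoter table (GRCh38.p14), chr4:167234495-167234744 for SPOCK3 and chr10:72089033-72089282 for SPOCK2, both on the minus strand, 5′ to 3′, with CG dinucleotides in capitals. The annotated span of SPOCK3 reaches past this start to 167234945, so the printed SPOCK3 stretch lies inside the span, and distances from the SPOCK3 start are counted from 167234494. SPOCK1 is named only.
SPOCK3: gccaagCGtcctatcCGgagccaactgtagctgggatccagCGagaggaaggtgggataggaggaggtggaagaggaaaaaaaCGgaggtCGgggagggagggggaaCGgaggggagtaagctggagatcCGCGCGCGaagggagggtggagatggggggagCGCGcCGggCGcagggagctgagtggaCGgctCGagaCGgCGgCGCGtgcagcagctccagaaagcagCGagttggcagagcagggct
SPOCK2: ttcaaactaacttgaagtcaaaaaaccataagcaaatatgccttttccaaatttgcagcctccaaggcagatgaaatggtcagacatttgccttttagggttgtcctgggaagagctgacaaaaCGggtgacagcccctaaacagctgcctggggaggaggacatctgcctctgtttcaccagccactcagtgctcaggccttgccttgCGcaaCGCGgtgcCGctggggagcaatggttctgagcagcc
The SPOCK3 stretch held 21 CG dinucleotides and 66.0% G or C, and the SPOCK2 stretch 5 and 51.6%, where the median of 15813 promoters of protein-coding genes was 17 and 62.4%. Neither held, on either strand, a GC box (GGGCGG, in 56.0% of those promoters), a TATA box (TATAAA, 9.25%), a GATA motif (AGATAA, 6.84%), a forkhead motif (TGTTTAC, 2.26%), a SOX motif (ACAAAG, 10.9%) or a T-box motif (TCACACC, 2.53%). This says only that these letters are not in these windows.

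At SPOCK3, 5 regions were gained in hDE against hESC, strict in both hDE libraries and absent from both hESC libraries, and 4 of them were absent from all other libraries. The 5 lay in 3 places: past the 3′ end of the gene, as a pair inside it, and as a pair just upstream of its start. SPOCK3 spans chr4:166733384-167234945 on the minus strand, so that the start is at the higher coordinate, and no other protein-coding gene reaches into its window. These are the values that chose the locus. The 5 gains were 14.7% of its 34 regions, where 5.43% of all regions were gained at this step, and the 4 regions of hDE alone were 11.8%, where 1.99% of all regions had that pattern. No SPOCK region was strict in both hAFE libraries and absent from all others (0.596% of all).

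**Figure D1:**
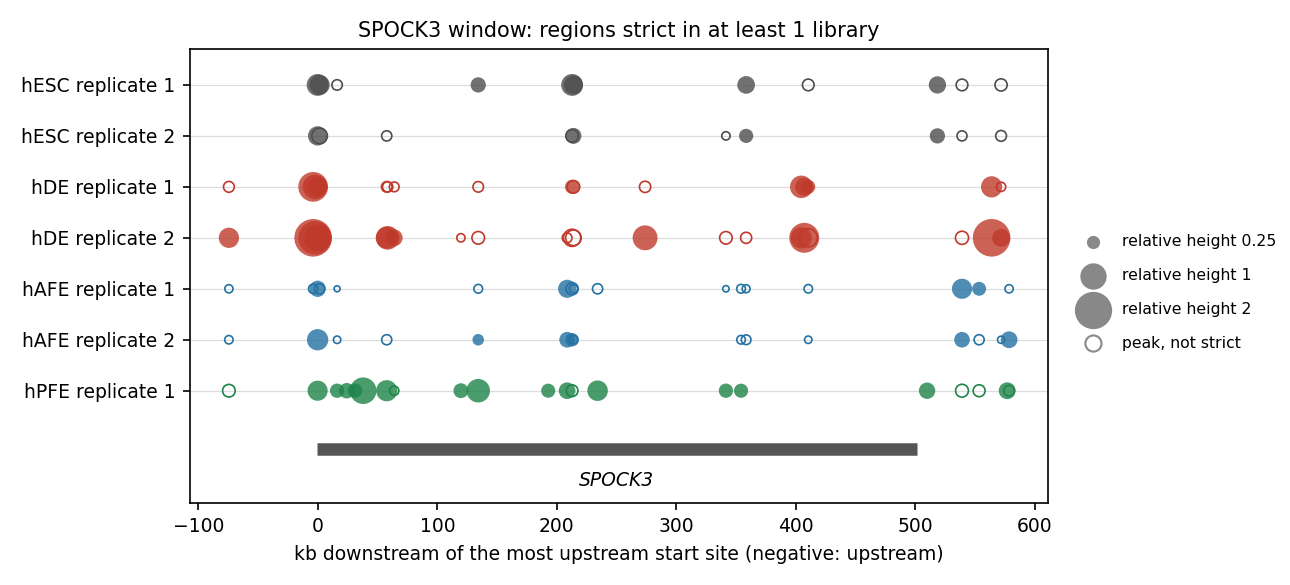
Regions of the SPOCK3 window that were strict in at least 1 library. The x axis is the distance in kb from the most upstream start in the RefSeq promoter table, and rows are libraries in stage order. The area of a circle is the relative height, filled circles are strict and open circles are peaks that were not strict. The largest circles are in the hDE rows at the start, inside the gene and past its 3′ end, and the hPFE row has strict regions along the first part of the gene.

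The region past the 3′ end, chr4:166670178-166671220, had its summit 62861 bp outside the gene. Its relative height was 0.649 and 2.03 in hDE replicates 1 and 2, with no peak in the other 5 libraries, and it ranked 12415th and 623rd among the regions of those libraries. Both hDE libraries placed the summit within 5 bp of each other. The open stretch was 1043 bp wide in hDE replicate 2 and 466 bp wide in hDE replicate 1.

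The pair inside the gene lay 2470 bp apart. At chr4:166827129-166827862, 93981 bp from the 3′ end, the relative height was 0.473 and 1.29 in the hDE libraries. At chr4:166829570-166830195 it was 0.733 and 0.646. Neither had a peak in any other library. The first of the pair was the higher in replicate 2 and the second in replicate 1. Another region nearby, chr4:166823908-166824212, was weaker and was not of hDE alone. It was strict in hDE replicate 1 (0.282), with peaks that were not strict in hDE replicate 2 (0.472), hESC replicate 1 (0.196) and both hAFE libraries (0.104 and 0.0791).

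The pair upstream of the start lay 1542 bp apart. The summit at chr4:167236613-167237330 was 2427 bp upstream of the start, with a relative height of 0.863 and 1.6 in hDE and no peak elsewhere. The summit at chr4:167238249-167238684 was 3969 bp upstream and the highest of the gene in hDE, at 1.27 and 2.04, above a typical region open at every stage in both libraries. Beside hDE, only hAFE replicate 1 had a peak there, at 0.123, so in hAFE against hDE this region is not counted as lost. The lowest relative height of any listed region was 0.137 in hESC replicate 1 and 0.115 in hPFE. It was 0.0455 to 0.0894 in hESC replicate 2 and both hAFE libraries. A region as low as 0.123 could thus not be listed in hESC replicate 1.

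**Figure D2:**
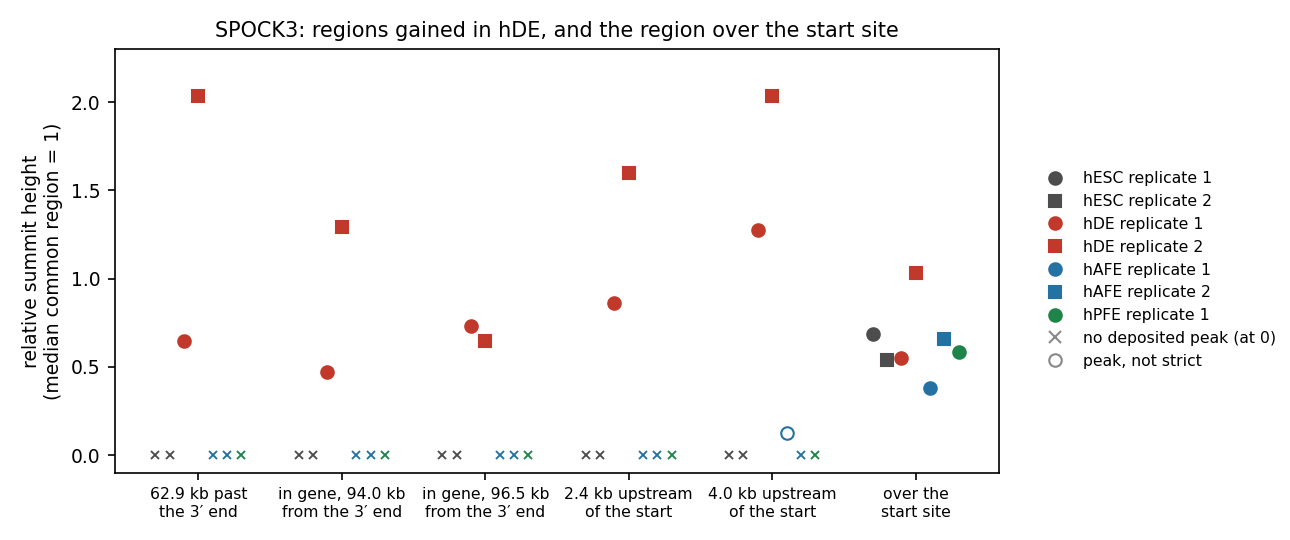
Relative summit height (y axis, the median region strict in all libraries is 1) of the 5 SPOCK3 regions gained in hDE and of the region over the start site, 1 point per library; crosses at 0 are libraries with no deposited peak and open points are peaks that were not strict. The hDE points lie from 0.473 to 2.04 at the 5 gained regions, where all other libraries but hAFE replicate 1 at 1 region are at 0, while at the start site all 7 libraries have a strict region.

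The depth of the libraries was set beside these gains. hDE replicate 1 and hESC replicate 2 had nearly the same background (4.58 and 4.62), and between this pair alone 6 SPOCK3 regions were strict in hDE and absent from hESC, where 7.64% of all regions were, and 2 the reverse, where 5.09% were. The hPFE library had no peak at any of the 5. Its background was 5.66, against 4.58 in hDE replicate 1, and its median summit over background at the regions strict in all 7 libraries was 21.6, against 28.6. The part of depth and of signal over background in the gains was not tested. Without hDE replicate 1 the number gained was 9, and without hDE replicate 2 it was 5. Leaving out a library makes a call easier by construction, here and below. With a library left out, the share over all regions is not given. In an ATAC-seq library of many cells, fewer cells with the site open and a less open site in each cell cannot be told apart.

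The region over the SPOCK3 start, chr4:167233442-167234994, was strict in all 7 libraries, the only SPOCK3 region that was. Its relative height was 0.686 and 0.536 (hESC), 0.55 and 1.03 (hDE), 0.383 and 0.655 (hAFE) and 0.582 (hPFE). Only hDE replicate 2 lay above the range of the other stages. The authors' deposited fold enrichment was lowest in hDE, with 6.75 and 7.81 (hESC), 3.91 and 4.49 (hDE), 9.04 and 9.80 (hAFE) and 7.65 (hPFE). The fold divides by the background around the peak, which was 3.85 and 9.24 times the genome-wide background in hDE, against 2.05 to 2.84 times in hESC and hAFE and 1.49 times in hPFE. The highest local background of the regions within 5 kb of the start lay above that of 82.2% and 99.2% of protein-coding starts in the hDE libraries, and above that of 22.4% to 44.5% in the other 5. The raised background and the gained pair upstream were in the same libraries, and the part of one in the other was not tested.

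The open stretch at the start had a pair of summits in all libraries but hPFE, one next to the start and one near the far edge of the printed stretch. In hDE the higher lay 253 and 269 bp upstream of the start and the lower 29 and 31 bp upstream. In hAFE the near summit led in replicate 1, at 47 bp, and the far one in replicate 2, at 247 bp. In hESC the far one led in replicate 1, at 251 bp, and the near one in replicate 2, at 38 bp. The hPFE library had its summit 46 bp upstream. Replicates of hESC and of hAFE thus differed in which summit led, while those of hDE did not.

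A set of 6 further SPOCK3 regions was strict in hDE replicate 2 and had a peak that was not strict in hDE replicate 1. The highest, inside the gene at chr4:166960257-166961054, had a relative height of 0.183 and 0.891 in hDE and no peak elsewhere. The next, at chr4:167175945-167176432, had 0.153 and 0.801 in hDE and likewise no peak in the other 5 libraries. Over the 6, replicate 2 ran from 0.407 to 0.891 and replicate 1 from 0.122 to 0.183. These regions are not in the counts of gains, since replicate 1 placed them below the strict rank. The share of all regions with this pattern is not given, so the count of 6 cannot be set against it. In total 7 and 4 (hESC), 8 and 12 (hDE), 4 and 6 (hAFE) and 15 (hPFE) of the 34 regions were strict.

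**Figure D3:**
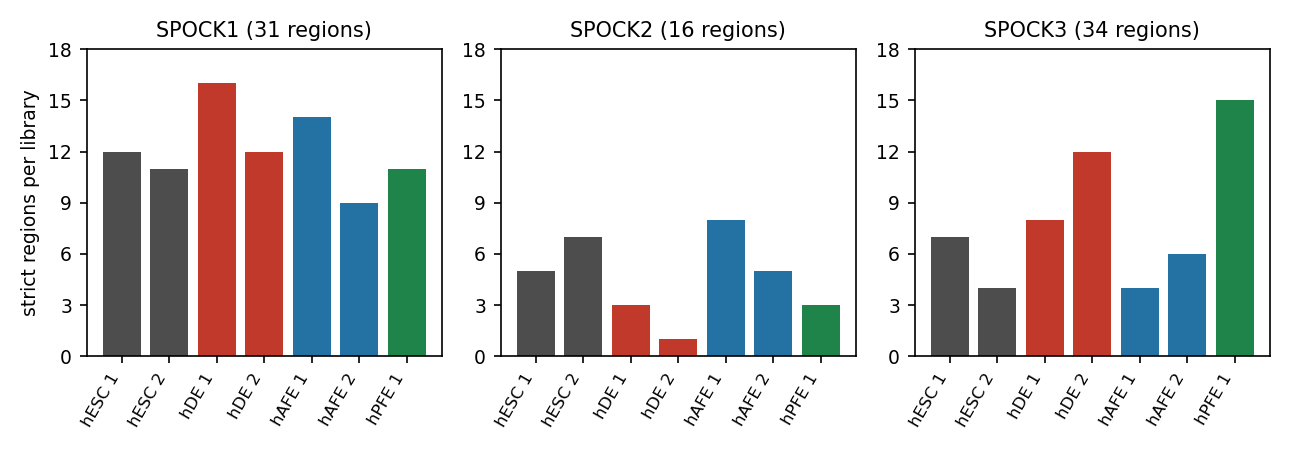
Number of strict regions (y axis) in each library (x axis, in stage order) for SPOCK1, SPOCK2 and SPOCK3, with the number of regions of each window in the title. SPOCK3 has its highest counts in hPFE (15) and hDE (8 and 12), SPOCK2 its lowest in hDE (3 and 1), and the SPOCK1 counts of the stages overlap (9 to 16).

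From hDE to hAFE, SPOCK3 lost the 4 regions of hDE alone and gained none. The 4 losses were 11.8% of its regions, where 3.2% of all regions were lost in hAFE against hDE and 2.05% gained. Without hDE replicate 1, 7 were lost, and without hDE replicate 2, 2 were gained. Beside the start, 2 SPOCK3 regions were strict in both hAFE libraries. Past the 3′ end, chr4:166695163-166695551 had 0.584 and 0.35 in hAFE, with lower peaks in hESC (0.196 and 0.145), hDE replicate 2 (0.248) and hPFE (0.238). Inside the gene, chr4:167025060-167026192 had 0.474 and 0.356 in hAFE, no peak in hESC or hDE replicate 1, a low one in hDE replicate 2 (0.137), and stayed strict in hPFE (0.402).

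The hPFE library had more strict SPOCK3 regions than any other, 15 of 34 (44.1%), where 38.0% of all regions were strict in it. In the other libraries the share was 11.8% to 35.3%, where 37.7% to 38.4% of all regions were strict. Against hAFE, 7 regions were gained in hPFE (20.6% of 34, where 8.45% of all regions were gained) and none was lost (4.18% of all). Of these, 6 had no peak in any other library, 17.6% of the SPOCK3 regions where 6.24% of all regions had that pattern. There is no replicate check for hPFE, and a gain there needs a single strict library. The strongest, chr4:167196338-167197105, 37892 bp downstream of the start, had a relative height of 1.02, and the other 5 lay between 0.287 and 0.41. With strict taken instead as a summit 10 times the background or more, 1 of these 6 was counted, as with 25000 strict regions, and with 100000 there were 11. The gains against hAFE numbered 1 with the summit limit, 1 with 25000 and 16 with 100000, in place of 7.

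Of the 6, 3 lay between 24176 and 37892 bp downstream of the start. Of the 15 regions strict in hPFE, those also strict in an hDE library were the start and chr4:167176661-167177316, which had 0.648 in hPFE and 0.16 and 0.68 in hDE. At chr4:167100003-167100477 the hPFE summit was also high (0.795), with lower peaks of 0.16 and 0.23 (hDE), 0.11 and 0.192 (hAFE) and 0.333 (hESC replicate 1).

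Between hPFE and hESC the mark of re-analysis differs too. In hPFE against hESC SPOCK3 gained 10 regions (29.4%, where 13.4% of all regions were gained) and lost 3 (8.82%, where 6.62% were lost). The gains numbered 2 with a summit 10 times the background or more, 2 with 25000 and 19 with 100000 strict regions. The losses numbered 4, 0 and 5 in the same order. The strongest loss, chr4:167020456-167020739, 213909 bp into the gene, had no peak in hPFE and 0.529 and 0.369 in hESC, and the stages between had 0.229 and 0.348 (hDE) and 0.0974 and 0.107 (hAFE). A region open in hESC alone, chr4:166715590-166716263, lay 17469 bp past the 3′ end. Its relative height was 0.431 and 0.335 in hESC, and no other library had a peak. It was 2.94% of the SPOCK3 regions, where 0.611% of all regions had that pattern. It was the single SPOCK3 loss in hDE against hESC, where 1.15% of all regions were lost, and without hDE replicate 2 there were 2.

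SPOCK1, whose product was first isolated from seminal plasma, is of about the same length (524029 bp on chr5, against 501562 bp for SPOCK3). Of its 31 regions, 12 and 11 (hESC), 16 and 12 (hDE), 14 and 9 (hAFE) and 11 (hPFE) were strict, so the stages overlap. This was more than at SPOCK3 in both hESC and both hAFE libraries and in hDE replicate 1 (16 against 8), the same in hDE replicate 2 and fewer in hPFE. Regions strict in all 7 libraries numbered 3 at SPOCK1, 1 at SPOCK3 and 0 at SPOCK2, together 4.94% of 81, where 11.2% of all regions were. No other protein-coding gene reaches into the SPOCK1 window.

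**Figure D4:**
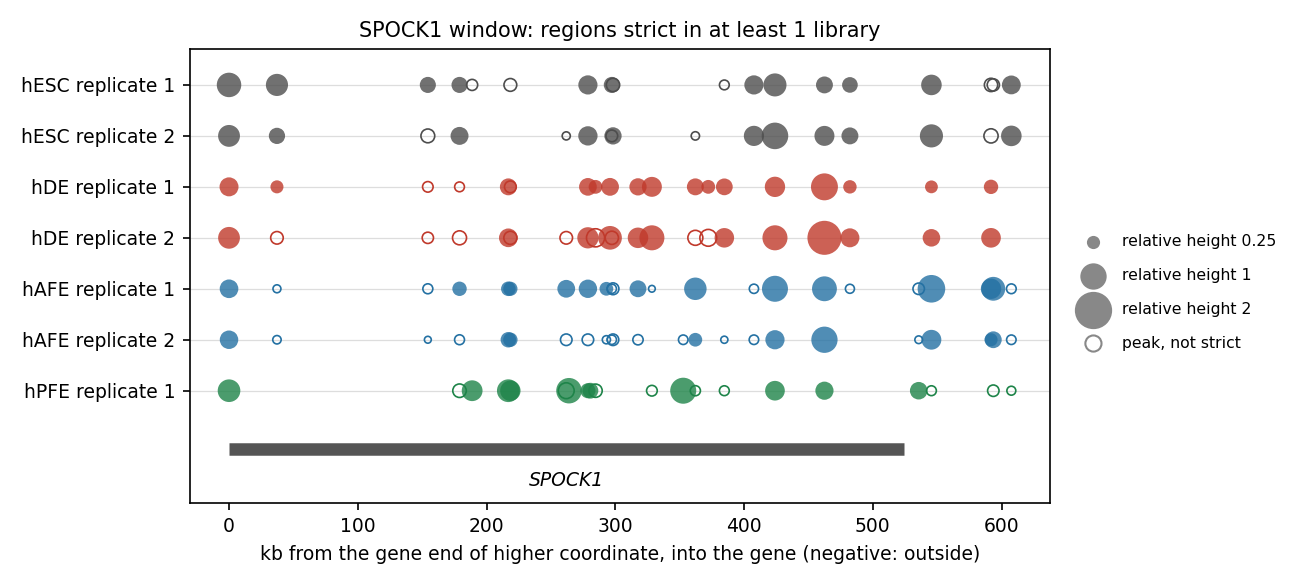
Regions of the SPOCK1 window that were strict in at least 1 library, by distance in kb from the gene end of higher coordinate into the gene (x axis) and library (rows, in stage order); circle area is relative height, filled circles are strict and open circles are peaks that were not strict. A few regions are filled in all 7 rows, while others are filled in the rows of 1 or 2 stages only.

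The region over the higher-coordinate end of SPOCK1, chr5:137497861-137499525, had a relative height of 0.863 and 0.687 (hESC), 0.519 and 0.683 (hDE), 0.5 and 0.492 (hAFE) and 0.738 (hPFE). The hAFE libraries were the lowest, hDE lay above them, and hPFE lay between the 2 hESC libraries. Inside the gene, chr5:137036364-137037379 had the highest mean summit of SPOCK1 in hDE and in hAFE, at 0.412 and 0.575 (hESC), 1.05 and 1.67 (hDE), 0.89 and 0.994 (hAFE) and 0.475 (hPFE). Both hDE and both hAFE libraries lay above the hESC and hPFE libraries there. The other region strict in all 7, chr5:137075185-137075700, had the highest mean summit in hESC, at 0.765 and 1.02 (hESC), 0.595 and 0.904 (hDE), 0.974 and 0.531 (hAFE) and 0.557 (hPFE), and its stages overlap.

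In hDE against hESC, SPOCK1 gained 4 regions and lost 2 (12.9% and 6.45% of 31, where 5.43% and 1.15% of all regions were called). All 4 gains lay inside the gene. The strongest, chr5:137170365-137171320, had 0.573 and 0.901 in hDE, no peak in hESC, and low peaks in hAFE replicate 1 (0.0649) and hPFE (0.164). The one open in hDE alone, chr5:137203127-137204061, had 0.458 and 0.807 in hDE and was the only SPOCK1 region lost in hAFE against hDE. Unlike these, chr5:137282053-137282840 was strict from hDE to the end of the course, with no peak in hESC, then 0.412 and 0.503 (hDE), 0.305 and 0.345 (hAFE) and 0.746 (hPFE). Of the losses, chr5:136891247-136892330, 83496 bp outside the gene, had no peak in hDE and 0.51 and 0.609 in hESC, with low peaks later (0.136 and 0.13 in hAFE, 0.115 in hPFE). The second, chr5:137091515-137091845, had no peak in hDE or hPFE, 0.123 and 0.13 in hAFE and 0.529 and 0.587 in hESC.

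In hAFE against hDE, SPOCK1 gained 1 region and lost 1 (3.23% each of 31, where 2.05% and 3.2% of all regions were called). The gain, chr5:136905459-136906073, lay 69500 bp outside the gene. Its relative height was 0.818 and 0.407 in hAFE, with no peak in hDE, beside 0.216 in hESC replicate 1 and 0.189 in hPFE. Without hDE replicate 2, or without hAFE replicate 1, 3 regions were lost in place of 1, and without hAFE replicate 2 there were 2 lost and 2 gained. In hPFE against hAFE SPOCK1 gained 3 regions and lost 1 (9.68% and 3.23%, where 8.45% and 4.18% of all regions were called). The strongest of these gains, chr5:137234942-137235813, 260033 bp from the lower end of the gene, had 0.934 in hPFE and no peak elsewhere. A region of similar height, chr5:137146308-137146943, had 0.975 in hPFE and a low peak in hAFE replicate 2 (0.13). It is 1 of the 5 regions gained against hESC (16.1%, where 13.4% of all regions were gained). The loss, chr5:136907349-136908029, had no peak in hPFE and 0.597 and 0.249 in hAFE, and without hAFE replicate 2 there were 3. The 3 regions lost in hPFE against hESC (9.68%, where 6.62% of all regions were lost) became 5 without hESC replicate 2.

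SPOCK2 is far shorter (29999 bp), and its window holds parts of CHST3, a chondroitin sulfotransferase gene, and of ASCC1, so that regions there cannot be assigned to SPOCK2 by position. Of its 16 regions, 4 had their summit inside SPOCK2, 4 inside ASCC1 and 2 inside CHST3. The highest region of the window in hPFE, chr10:71963712-71965538, had its summit 191 bp outside an end of CHST3, with 0.569 and 0.453 (hESC), 0.336 and 0.208 (hDE), 0.416 and 0.486 (hAFE) and 0.615 (hPFE). Inside CHST3, chr10:71970055-71970747 was the highest in hAFE, with 0.49 and 0.642 (hESC), 0.198 and 0.186 (hDE), 0.63 and 0.475 (hAFE) and 0.238 (hPFE), and there both hDE libraries and hPFE lay below both hESC and both hAFE libraries. The number of strict regions was 5 and 7 (hESC), 3 and 1 (hDE), 8 and 5 (hAFE) and 3 (hPFE) of 16.

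**Figure D5:**
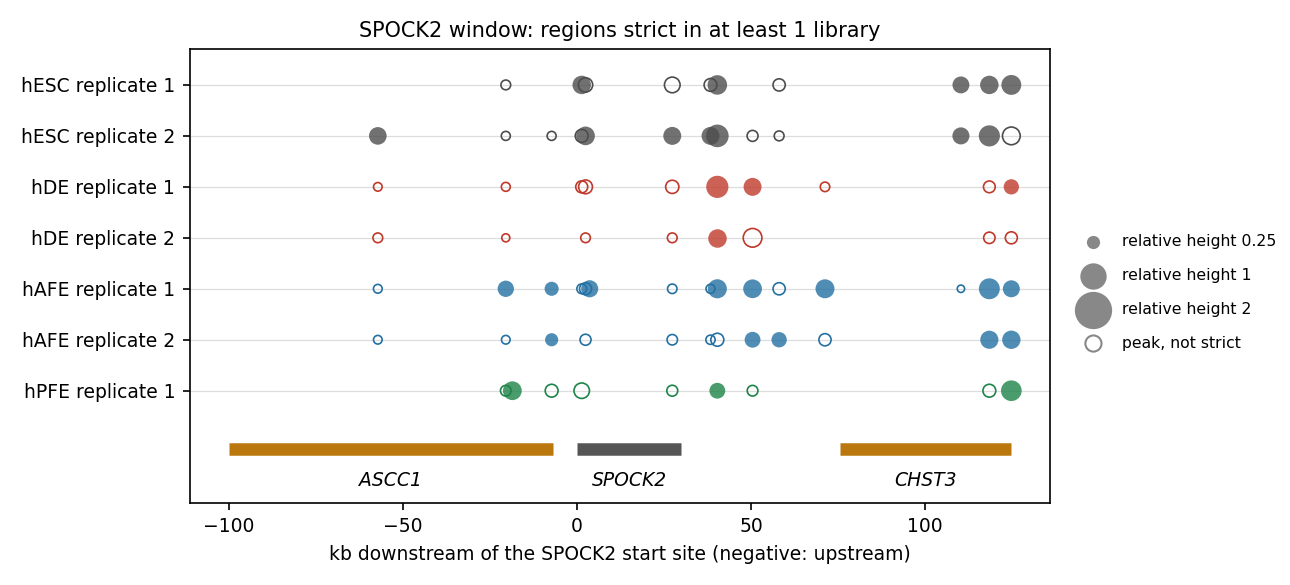
Regions of the SPOCK2 window that were strict in at least 1 library, by distance in kb downstream of the SPOCK2 start site (x axis) and library (rows, in stage order), with the neighbouring genes cut at the window; circle area is relative height, filled circles are strict and open circles are peaks that were not strict. The hDE rows have 3 and 1 filled circles, none of them inside SPOCK2.

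No SPOCK2 region was strict over the printed start. A peak with its summit within 100 bp of the printed stretch or of the 50 bases after it was listed in hESC replicate 2 (relative height 0.413), hDE replicate 2 (0.171), hAFE replicate 1 (0.123) and hPFE (0.205), and in none of the other 3 libraries. Replicates therefore differed at every stage that had them. The 4 regions inside the gene were strict in 1 library each: chr10:72086430-72086780 (0.503) and chr10:72061366-72061998 (0.464) in hESC replicate 2, chr10:72087538-72088018 (0.49) in hESC replicate 1 and chr10:72085271-72085520 (0.422) in hAFE replicate 1. In hDE the relative height was 0.134 to 0.275 where a peak was present.

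The region of the SPOCK2 window strict in the most libraries lay 10336 bp beyond the 3′ end of SPOCK2, at chr10:72048513-72049033, and was strict in all libraries but hAFE replicate 2. Its relative height was 0.549 and 0.737 (hESC), 0.71 and 0.494 (hDE), 0.526 and 0.243 (hAFE) and 0.361 (hPFE), and hPFE lay below both hESC and both hDE libraries. Further out, chr10:72037562-72038781 had 0.466 and 0.503 (hDE), 0.506 and 0.362 (hAFE) and 0.164 (hPFE), against no peak and 0.173 in the hESC libraries. The one region lost in hDE against hESC, chr10:71978519-71978968, had no peak in hDE and 0.412 and 0.419 in hESC, and lay inside CHST3. The one gained in hAFE against hDE, chr10:72096035-72096506, had 0.286 and 0.249 in hAFE and lay 283 bp inside ASCC1. The one gained in hPFE, chr10:72107449-72108110, had 0.508 and lay inside ASCC1 too. None of these called regions lay inside SPOCK2. Each was 6.25% of the 16 regions. Over all regions 1.15% were lost in hDE against hESC, 2.05% gained in hAFE against hDE and 8.45% gained in hPFE against hAFE. In hPFE against hESC 1 was gained and 1 lost (6.25% each, where 13.4% and 6.62% of all regions were called). Without hESC replicate 1, 4 were lost in hPFE against hESC in place of 1, and 2 in hDE against hESC in place of 1. Without either hAFE replicate, 2 were gained in hAFE, and 1 or 2 were lost in hPFE in place of 0. For these smaller sets of libraries the share over all regions is not given.

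Over the 3 windows together, 9 regions were gained in hDE against hESC and 4 lost (11.1% and 4.94% of 81, where 5.43% and 1.15% of all regions were called). In hAFE against hDE 2 were gained and 5 lost (2.47% and 6.17%, where 2.05% and 3.2% were called over all). In hPFE against hAFE 11 were gained and 1 lost (13.6% and 1.23%, where 8.45% and 4.18% were called over all). In hPFE against hESC 16 were gained and 7 lost (19.8% and 8.64%, where 13.4% and 6.62% were called over all). The hDE values include those that chose SPOCK3. No exact test of 2 libraries against 2 can go below p = 0.333 (two-sided permutation), so no count has a p. Between replicates of a stage, 0 or 1 region per gene was strict in one library and absent from the other, where 0.047% to 1.65% of all regions were. With so few regions per gene this count says little about these genes. The 2 hAFE gains became 4 without hAFE replicate 1, 5 without hAFE replicate 2 and 4 without hDE replicate 2, and the 5 losses became 8 without hDE replicate 1 or hAFE replicate 1. The 1 loss in hPFE against hAFE became 2 without hAFE replicate 1 and 5 without hAFE replicate 2, and the 7 against hESC became 11 without hESC replicate 1.

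At regions strict in both replicates the distance between their summits was taken. In hDE its median was 5.5 bp over 12 regions at SPOCK1 and 16 bp over 6 at SPOCK3, and it was 28 bp at the 1 SPOCK2 region. In hESC it was 9.5 bp over 10 SPOCK1 regions, 12 bp over 3 SPOCK2 regions and 18 bp over 4 SPOCK3 regions, where the region over the start, with its pair of summits, gave the largest distance (213 bp). In hAFE it was 8 bp over 9 SPOCK1 regions (up to 140 bp), 13 bp over 4 SPOCK2 regions (up to 749 bp, at the region beside the CHST3 end) and 21 bp over 3 SPOCK3 regions (up to 200 bp). A few regions thus had their summits well apart.

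The edges of the windows were looked at once, with distances counted from the gene ends. At SPOCK3 the outermost member regions lay 77481 bp past the 3′ end (strict in 1 library, relative height up to 0.407) and 74055 bp beyond the higher end of the span (strict in hDE replicate 2 alone, 0.590), and the nearest regions beyond the limit lay at 138858 bp (strict in all 7, up to 0.745) and 124977 bp (strict in 3, up to 0.569). At SPOCK1 the nearest region beyond the limit on the higher side lay at 105544 bp (strict in 2, up to 1.14), with no member outside the gene on that side. On the lower side the outermost member lay 83496 bp from the gene end, and the nearest region beyond the limit lay 163564 bp from that end. At SPOCK2 the regions just inside lay at 94830 and 57233 bp and those just beyond at 153993 and 126986 bp.

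The wider testican setting was described with 37 genes in 4 lists, all matched in RefSeq, with 827 regions in their windows. In hDE against hESC 40 of these were gained (4.84%) and 12 lost (1.45%), close to the shares over all regions. By number alone the most gains were at GPC6 (4 of 68 regions) and GPC5 (3 of 59), where 5.43% of all regions were gained. These are genes of glypicans, which are heparan sulfate proteoglycans held at the cell surface. MMP16, a membrane-type matrix metalloproteinase gene, followed (2 of 29). In hAFE against hDE 16 were gained (1.93%) and 22 lost (2.66%), where 2.05% and 3.2% of all regions were called. The losses were 4 of 59 regions at GPC5, 3 of 68 at GPC6 and 2 of 17 at NDST3, a heparan sulfate sulfotransferase gene. SMOC1, of the SPARC family, gained 3 of 23. In hPFE against hAFE 73 were gained (8.83%) and 22 lost (2.66%), where 8.45% and 4.18% of all regions were called. The gains were 12 of 59 regions at GPC5, 11 of 68 at GPC6 and 5 of 29 at MMP16. SDC1 and SDC2, genes of syndecans, lost 2 of 19 and 2 of 18, and NDST4 lost 2 of 23.

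By list, the 5 SPARC family genes gained 6 of 98 regions in hDE against hESC, at 4 genes. The 13 heparan sulfate proteoglycan genes gained 13 of 337, the 5 protease genes 3 of 89 and the 14 genes of chain synthesis 18 of 303, at 11 genes. These shares, 3.37% to 6.12%, lie on either side of the 5.43% over all regions. In hPFE against hESC the lists gained 9.9% to 20.2%, on either side of the 13.4% over all regions, the highest at the proteases, where MMP16 had 10 of the 18. CHST3 is in the chain synthesis list and in the SPOCK2 window, so its regions count in both.

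The number of strict regions by library was compared between each SPOCK gene and all protein-coding genes on other chromosomes with at least 5 strict regions in some library. Nearest to SPOCK3 were SPRR2B (Pearson r = 0.989), DACH1, a transcriptional corepressor gene (0.987), NAALADL2 (0.982), CUBN, the gene of the endocytic receptor cubilin (0.980), and WARS2 (0.980), each over 7 libraries. For DACH1 the counts were 7 and 5 (hESC), 8 and 13 (hDE), 5 and 7 (hAFE) and 14 (hPFE). Nearest to SPOCK1 was SALL4, a transcription factor gene of pluripotency (r = 0.974), followed by OR6X1 and ZNF202, whose windows overlap (0.969 and 0.953). Nearest to SPOCK2 were DNTTIP1 and WFDC3, whose windows overlap too (0.994 and 0.991), and FBXO47 (0.988). An r above 0.9 was found for 82 of 17116 genes with SPOCK3, 13 of 16965 with SPOCK1 and 420 of 17111 with SPOCK2, and the 7 values of each gene share the depth and the rank limit of the libraries.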

How the data were processed

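Deposited narrowPeak lists of 7 ATAC-seq libraries of H1 cells were used, each made from a single library. Per the submitters' processing notes the build was hg38 and DiffBind was used (no version), and words in the names of the deposited files point to removed duplicates and mitochondrial reads, to cut sites of Tn5, and to limits of p 0.01 and 300000 peaks. Aligner and peak caller: not given in the sources used here. Peak numbers ran to 300000 in every library, so the limit on number ended each list, and absence of a weak peak depends on depth.

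The authors' deposited fold (a ratio of summit over local background) was used to describe peaks, and their −log10 p, which grows with depth, to rank regions within a library; the deposited −log10 q and score were not used. The whole-number summit pileup and the local background were recovered from the authors' fold and −log10 p, within 0.001 of −log10 p in 100% of regions of each library. The most frequent background among the weaker regions is the genome-wide background. Summits were set relative to the regions strict in all 7 libraries, a scale chosen after the data were examined; it corrects for signal over background, not for depth.

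Overlapping peaks of a library were merged, the 50000 regions with the highest −log10 p were called strict, and strict regions were joined across libraries by an overlap of at least 1 bp. A region gained was strict in each library of the stage named first and absent from each of the other, and a region lost the opposite. No test was run, and shares are given beside those of all regions. Genes, spans, strands and promoters are from RefSeq GRCh38.p14; exons and introns were not used here. The members, lists and motifs were chosen with earlier results of these data known. Named regions were the SPOCK3 regions of hDE alone, the highest of each stage, the strongest gained and lost of each comparison and those at gene ends; others were chosen after their values were seen. In the lists, the 3 genes with the most calls, and by likeness 5 genes for SPOCK3 and 3 for the others, were named. The alternatives were 25000 or 100000 strict regions, a summit 10 times the background or more, the gene span alone, a stricter overlap rule (a set part of the shorter interval in place of 1 bp), leaving out each replicate and 1 pair of like depth. The recovery and the calls were tested on simulated data. Python 3.11.15, NumPy 2.4.6, pandas 2.3.3 and SciPy 1.17.1 were used.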

Additional observations from a re-analysis of the deposited data

How the results depend on the processing

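The stricter overlap rule left each count as it was. With 25000 strict regions per library the gained and lost counts over the 3 windows were 4 and 2 in hDE against hESC, 1 and 2 in hAFE against hDE, 4 and 0 in hPFE against hAFE, and 6 and 1 in hPFE against hESC, with 2 SPOCK3 regions of hDE alone. With 100000 they were 17 and 6, 7 and 12, 28 and 11, and 36 and 12 in the same order. A summit 10 times the background or more gave 4 gained and 2 lost in hPFE against hAFE and 6 gained in hPFE against hESC. For these limits the share over all regions is not given. Whether the SPOCK shares stay above it cannot be read from the counts. The gene spans alone gave 1 lost in hDE against hESC, 0 gained and 3 lost in hAFE against hDE, 0 lost in hPFE against hAFE, and 2 SPOCK3 regions of hDE alone, fewer because the windows are smaller. The pair of like depth gave 13 gained and 7 lost in hDE against hESC. Leaving out a replicate gave 9 to 13 gained and 4 to 6 lost in hDE against hESC, 2 to 5 and 6 to 8 in hAFE against hDE, 13 and 2 to 5 in hPFE against hAFE, and 18 to 20 and 10 to 11 in hPFE against hESC; the SPOCK3 regions of hDE alone numbered 4 to 6. Fewer libraries make the calls easier by construction; for the other settings the cause was not tested. No paired analysis was possible because the counts of regions come from no test.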
